A study of Homo sapiens with 6 samples.

Results

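The mitotic spindle is built from microtubules together with a large set of proteins that nucleate, bundle, stabilise, destabilise and anchor them. Augmin, an octameric complex, recruits γ-tubulin to existing microtubules so that new ones branch from their sides. Other members gather minus ends at the poles, ride on growing plus ends, crosslink the midzone, or direct the cleavage furrow once chromosomes have separated. The 41 genes described here are such spindle microtubule-associated, augmin and cytokinesis genes, chosen by symbol from the 63129 genes of the deposited table. All 41 were found. A symbol listed more than once was represented by its row of highest mean level. This applied to HAUS7, whose other entry was listed at 0 in every library. Of the 41, 40 reached a mean level of 1 FPKM, the unit of fragments scaled to transcript length and to library size, and were tested, whereas MAP7 did not.

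The RNA came from IMR90 cells, a line of human lung fibroblasts, that stably carried ER:RAS, a tamoxifen-responsive form of the oncogene H-RasV12 (ERRAS cells). All cells were grown in 20% fetal calf serum with G418 at 3% oxygen and were arrested in mitosis with 1 μM Dimethylenastron (DME), which blocks the kinesin Eg5 and leaves cells with monopolar spindles. In 3 libraries the cells were left uninduced (control mitotic cells), and in 3 they had received tamoxifen for 4 days (Ras-induced mitotic cells). The study reports that detached cells were collected selectively, and that by microscopic scoring most cells of both groups were mitotic. The labels give the dose as 100 nM, whereas the study's methods state it for 4-hydroxytamoxifen by mass, and the disagreement could not be resolved here. Controls carried the construct and DME as well, and no vehicle is stated for them. Which ERRAS population each library came from is not given in the sources used here, and the arrested state limits the comparison to spindles that could not become bipolar. Libraries are numbered as in the column names, and no label pairs them across groups. The study repeated the experiment independently, but which control and Ras-induced libraries came from the same repeat is not labelled.

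Most of 16 mitotic and G2/M markers were abundant in both groups, with the most abundant, CCNB1, at 549.7 ± 34.6 FPKM in control libraries against 482 ± 38.8 FPKM after induction (SD, n = 3 each). CDK1, TOP2A and UBE2C were low, listed at 3.68 and 2.73, 9.60 and 5.90, and 13.5 and 13.8 FPKM on average. Of the fibroblast genes VIM averaged 2149 and 2248 FPKM and COL1A2 924 and 379 FPKM, the latter called lower after induction, whereas the endothelial gene PECAM1 and the blood genes CD3E and HBB were listed at 0 throughout, and the blood genes PTPRC and CD14 stayed under 1 FPKM. In the epithelial list SFTPC was listed at 0, CDH1 stayed under 1 FPKM and EPCAM averaged 1.24 and 0.288 FPKM, while KRT5 averaged 11.7 and 11.6 FPKM, KRT14 10.2 and 8.45 FPKM, and CLDN4 4.44 and 3.02 FPKM. Depth relative to the first control library, estimated from the steps between low values, was 0.951 and 1.17 in the other controls and 0.845 to 1.13 in the Ras-induced libraries. Absolute depth was not analysed here, since the values used are not counts. In the deposited values the median change over the 13993 tested genes was 0.10 rather than 0 on the log2 scale, so a gene with no difference lay slightly below the bulk of genes. Quantile and upper-quartile scaling of the libraries brought that median to 0.01 and 0.0047.

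Of the 40 spindle-associated genes tested, 15 were lower and 5 higher after Ras induction, and 20 did not pass the test. Genes were called at an adjusted p of 0.05 or less (limma on log2(FPKM + 1), Benjamini-Hochberg over all tested genes). The background over all tested genes was 16.7% called, made up of 5.67% lower and 11.0% higher, so that 50.0% of the spindle-associated genes were called and 37.5% were called lower. Without 1 library the number called lower was 7, 6 and 14 for control 1, 2 and 3, and 7, 11 and 7 for Ras-induced 1, 2 and 3. Of all tested genes 353, 335 and 710, and 407, 524 and 341, were called lower in the same fits, against 793 with every library. Among tested genes averaging 50 FPKM or more, 22.7% were called and 8.63% were called lower. With quantile scaling 19 were lower and 3 higher, against 7.93% lower and 7.46% higher of all tested genes, and with upper-quartile scaling 21 were lower and 3 higher, against 7.87% and 6.58%. Restricting the test to genes averaging 5 FPKM or more gave 16 of 38 lower, against 6.99% of the genes then tested. At an adjusted p of 0.01 or less, 7 of the 40 were called, against 4.3% of all tested genes. The median log2 fold change of the 40 genes was -0.27, and 34 of them lay below the median of all tested genes. Summed over the 41 genes, the level was 3653, 3618 and 3724 FPKM in the control libraries. It was 2718, 2823 and 2781 FPKM in the Ras-induced libraries. The sums did not overlap between groups. They weigh abundant genes most, with STMN1 at 581 and 381 FPKM and PRC1 at 304 and 191 FPKM on average.

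By role, and with no test of the differences between roles, the counts were small. All 5 cytokinesis genes were called lower, but 2 without control 1 or 2 or Ras-induced 1, 3 without Ras-induced 2 or 3, and 4 without control 3. With no minimum level 3 of the 5 were called. At the spindle pole 3 of 7 were lower and 1 higher, and these 4 calls became 1 when any library but the third control was left out, and 2 with no minimum level or no trend. Among plus-end and kinetochore-fibre genes 4 of 10 were lower and 1 higher, with 1 called without control 2 or Ras-induced 1 or 3 and 2 without control 1. Among the 8 tested bundling and lattice genes 2 were lower and 2 higher. Of the destabilising pair 1 was lower, and 0 without control 1 or 2 or Ras-induced 3. Augmin had no gene called lower and 1 of 8 called higher (12.5%, against 16.7% of all tested genes called), while quantile scaling called 1 and upper-quartile scaling 2 augmin genes lower. The 5 genes called higher had group levels of 2.20 to 39.5 FPKM, and every gene called lower lay above them in both groups but CIT, whose Ras-induced mean of 34.0 FPKM was under that of TACC2. In the bulk RNA of such libraries, fewer cells with a transcript and less of it per cell cannot be told apart.

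**Figure D1:**
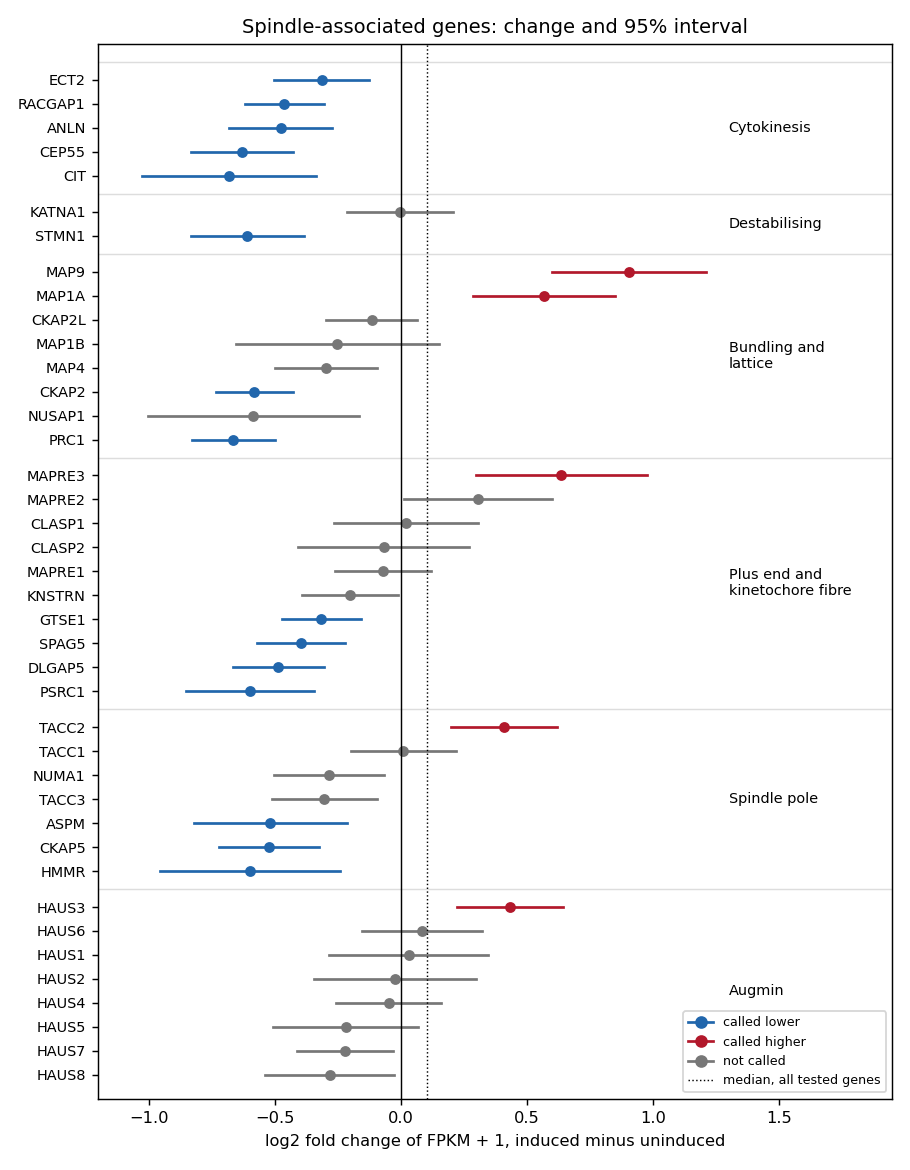
Log2 fold change of FPKM + 1 (Ras-induced minus control) for the 40 tested genes, arranged by role, with points for the estimate, bars for the 95% interval and colours for the call. The 5 cytokinesis genes lie between -0.68 and -0.31, whereas the 8 augmin genes lie between -0.28 and 0.43.

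**Figure D2:**
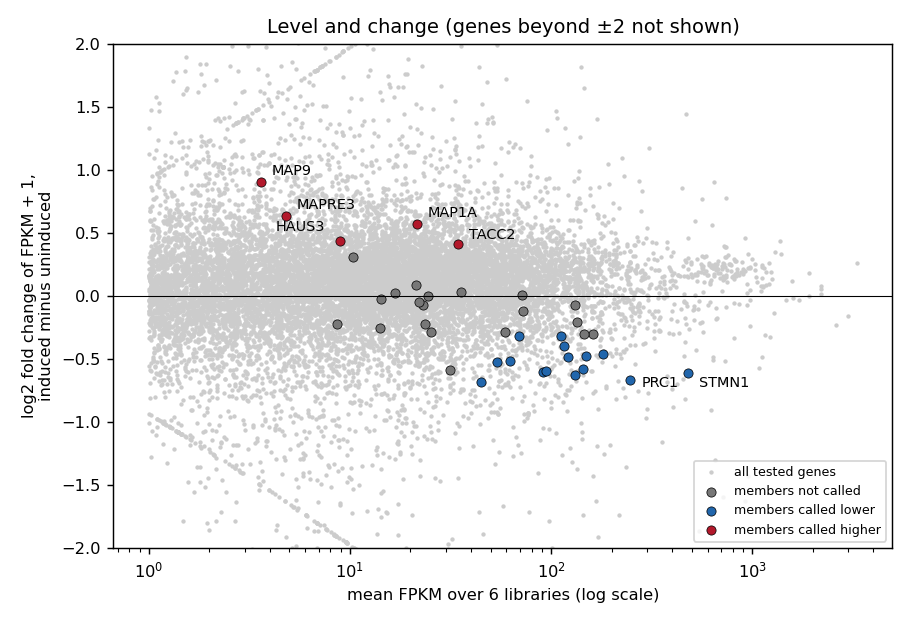
Mean FPKM over the 6 libraries (log axis) against log2 fold change of FPKM + 1 (Ras-induced minus control), with all 13993 tested genes in grey, genes beyond 2 in either direction left out, and spindle-associated genes coloured by call. Genes called lower have means between 44.8 and 481 FPKM and genes called higher between 3.61 and 34.5 FPKM.

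Most genes called lower held a short promoter word known from late cell cycle genes. The cell cycle genes homology region (CHR), with the core TTTGAA, is known as a docking site of the DREAM and MuvB complexes on late cell cycle genes, often downstream of CCAAT boxes bound by NF-Y. RefSeq promoters (GRCh38.p14, 250 bases before to 50 after the first listed start) were found for 39 of the 41 genes, with none for TACC1 and RACGAP1. TTTGAA on either strand occurred in 11 of 14 promoters of genes called lower (78.6%), in 4 of 19 of tested genes not called (21.1%) and in 0 of 5 of genes called higher. Among the 39 together it occurred in 15 (38.5%). Over all 27305 promoters the share was 15.4%, over the 8654 of tested genes it was 9.82%, and over the 555 of tested genes called lower it was 17.5%. When any listed start of a gene was counted, 11 of 14, 7 of 19 and 1 of 5 promoters held it, against 18.2% of all. A match describes letters and not a bound site. The 41 genes were chosen for spindle and cytokinesis roles, so a word of late cell cycle genes is not independent of that choice. Gene class and call were not separated here.

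CCAAT on either strand, which shares no base with TTTGAA in the stretches shown, occurred in 11 of the 14 promoters of genes called lower, in 7 of the 19 not called, in 3 of 5 called higher and in 35.7% of all promoters, 36.7% of those of tested genes and 41.3% of those of tested genes called lower. Both words together occurred in 9 of the 14 (64.3%), in 3 of the 19 not called (15.8%) and in 0 of the 5 called higher. Those not called were CKAP2L, NUSAP1 and MAPRE1. The share was 6.08% of all promoters, 4.14% of those of tested genes and 9.91% of those of tested genes called lower. An E2F word (TTTCCCGC or TTTGGCGC, either strand) was rarer, in 1 of the 14 (STMN1, 7.14%), in 2 of the 19 not called and in none of the 5 called higher. It occurred in 2.31% of all promoters, in 3.85% of those of tested genes and in 8.29% of those of tested genes called lower. The last 100 bases before the start are shown, so that the words and their spacing can be read, for 5 genes called lower and for 2 called higher, 5′ to 3′ on the strand of the gene, with TTTGAA and CCAAT of either orientation in capitals.
PRC1 (chr15:90994536-90994635, minus strand): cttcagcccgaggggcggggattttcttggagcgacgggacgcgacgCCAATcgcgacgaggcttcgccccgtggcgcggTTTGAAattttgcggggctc
GTSE1 (chr22:46296770-46296869, plus strand): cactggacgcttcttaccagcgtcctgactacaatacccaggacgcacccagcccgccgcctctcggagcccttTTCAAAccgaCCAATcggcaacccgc
CKAP5 (chr11:46846281-46846380, minus strand): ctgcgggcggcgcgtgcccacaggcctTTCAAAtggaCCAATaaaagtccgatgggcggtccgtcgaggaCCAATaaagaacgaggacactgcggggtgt
HMMR (chr5:163460532-163460631, plus strand): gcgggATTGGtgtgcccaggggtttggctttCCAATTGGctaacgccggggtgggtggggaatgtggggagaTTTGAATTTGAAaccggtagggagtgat
ANLN (chr7:36389762-36389861, plus strand): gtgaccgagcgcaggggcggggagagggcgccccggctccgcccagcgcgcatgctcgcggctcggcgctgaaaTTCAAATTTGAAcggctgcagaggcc
MAP9 (chr4:155376966-155377065, minus strand): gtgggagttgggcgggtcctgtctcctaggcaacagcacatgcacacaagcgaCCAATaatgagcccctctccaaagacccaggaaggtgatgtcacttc
MAP1A (chr15:43510854-43510953, plus strand): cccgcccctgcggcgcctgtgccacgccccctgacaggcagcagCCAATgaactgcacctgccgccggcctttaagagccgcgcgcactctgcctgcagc
In PRC1 the TTTGAA began 20 bases before the start and a CCAAT 53 bases before it. GTSE1 had the reverse complement, TTCAAA, 26 bases before the start with a CCAAT at 16, and CKAP5 had it at 73 with CCAAT at 63 and 30 bases before the start. In ANLN the word stood on both strands side by side, from 26 and 20 bases before the start, and in HMMR it was repeated at 28 and 22 bases, downstream of a CCAAT that overlaps its own reverse complement. MAP9 and MAP1A held CCAAT but no TTTGAA. CKAP2, STMN1 and PSRC1 were the genes called lower whose promoters lacked TTTGAA.

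Among cytokinesis genes all 5 were lower without overlap between the groups, as were 12.8% of all tested genes. CEP55 (ENSG00000138180, chromosome 10 of GRCh37 from 95256369 to 95288849), a midbody protein that recruits the abscission machinery, measured 174, 162 and 147 FPKM in the control libraries and 99.3, 106 and 104 FPKM in the Ras-induced libraries. Its mean fell by 35.7%, with a log2 fold change of -0.63 ± 0.08 (SE, adjusted p = 0.00661, limma). RACGAP1, the GTPase-activating subunit of centralspindlin, measured 214, 208 and 209 FPKM in control and 156, 154 and 147 FPKM in Ras-induced libraries. Neither overlapped between groups, and both were called whichever library was left out.

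CIT, the citron kinase that organises the midbody, had 51.2, 48.2 and 67.2 FPKM in control and 34.6, 30.3 and 37.1 FPKM in Ras-induced libraries. The third control library was the highest of the 6. The log2 fold change was -0.68 (adjusted p = 0.025, limma), with the widest 95% interval of the 5 genes, -1.03 to -0.34. ANLN, an actin and septin scaffold of the cleavage furrow, had 168, 168 and 183 FPKM in control and 119.9, 117 and 135 FPKM after induction. ECT2, the exchange factor that activates RhoA at the equator, had 134, 118 and 119.9 FPKM in control and 98.9, 104 and 96.1 FPKM after induction, the smallest change of the 5. The log2 fold changes of RACGAP1, ANLN and ECT2 were -0.46, -0.48 and -0.31 (adjusted p = 0.00768, 0.0153 and 0.0418, limma). The call of ECT2 ended whichever of the 6 libraries was left out (adjusted p = 0.0535 to 0.125), that of CIT without each library but the third control (adjusted p = 0.0555 to 0.081), and that of ANLN without control 1 or 2 or Ras-induced 1 (adjusted p = 0.0512 to 0.0588). With no minimum level the calls of ECT2 and CIT ended as well (adjusted p = 0.0679 and 0.0651, limma), and with no mean-variance trend that of ECT2 (adjusted p = 0.0704, limma).

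At the spindle pole, CKAP5 (ENSG00000175216, chromosome 11 of GRCh37 from 46764598 to 46867859), the chTOG microtubule polymerase, measured 63.5, 59.3 and 68.1 FPKM in control and 46.0, 41.5 and 44.2 FPKM in Ras-induced libraries. It had a log2 fold change of -0.52 ± 0.08 (SE, adjusted p = 0.0108, limma) and stayed called whichever library was left out. HMMR, which ties spindle poles to microtubules and TPX2, measured 97.3, 98.2 and 136 FPKM in control and 68.1, 67.1 and 80.1 FPKM in Ras-induced libraries. ASPM, which focuses minus ends and sets spindle orientation, measured 68.5, 64.2 and 88.9 FPKM in control and 50.2, 51.3 and 50.8 FPKM after induction. In both genes the third control library stood above the other controls, and the Ras-induced libraries lay below all controls. HMMR had a log2 fold change of -0.60 ± 0.15 (SE, adjusted p = 0.0398, limma) and ASPM had a log2 fold change of -0.52 ± 0.13 (SE, adjusted p = 0.0381, limma). Leaving out control 1 or 2 or any Ras-induced library ended either call (adjusted p = 0.0758 to 0.124 for HMMR and 0.058 to 0.117 for ASPM), as did no minimum level (adjusted p = 0.0973 and 0.087) and no mean-variance trend (adjusted p = 0.058 and 0.0568).

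Of the TACC genes TACC2 alone was called. TACC3, the mitotic partner of CKAP5 and clathrin on spindle microtubules, measured 165, 174 and 195 FPKM in control and 137, 144 and 150.1 FPKM in Ras-induced libraries. Its groups did not overlap, and it was not called, with a log2 fold change of -0.30 ± 0.09 (SE, adjusted p = 0.0584, limma). With quantile or upper-quartile scaling its adjusted p was 0.0408 or 0.0368. TACC2, a paralog of TACC3, was the higher one, with 30.1, 26.8 and 31.6 FPKM in control and 38.3, 41.6 and 38.5 FPKM after induction. It had a log2 fold change of 0.41 ± 0.09 (SE, adjusted p = 0.0269, limma), and the same scalings ended that call (adjusted p = 0.0858 and 0.082), as did leaving out any library but the third control (adjusted p = 0.0687 to 0.0789). TACC1 ranged over 64.3 to 77.2 FPKM with overlapping groups, and its log2 fold change of 0.01 had a 95% interval from -0.20 to 0.22. NUMA1, which anchors dynein at poles and cortex, had 60.2, 63.2 and 71.5 FPKM in control and 56.4, 52.0 and 50.7 FPKM after induction. Its groups did not overlap and its log2 fold change was -0.29 (adjusted p = 0.0786, limma, and 0.0474 with upper-quartile scaling). It shares 2760 exonic bases (18.1%) with a long non-coding RNA gene on the other strand, which averaged 20.9 FPKM in control and 16.4 FPKM in Ras-induced libraries.

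**Figure D3:**
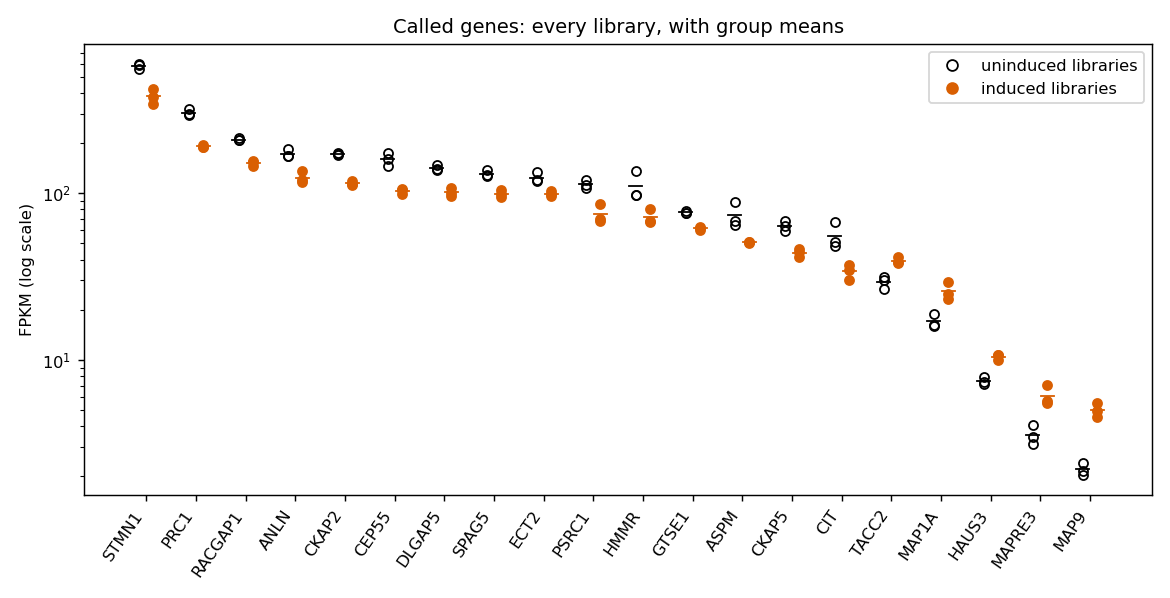
FPKM (log axis) of the 20 called genes in every library, with horizontal lines for group means, ordered by control mean. Ras-induced points lie below control points for the 15 genes on the left, from STMN1 to CIT, and above them for TACC2, MAP1A, HAUS3, MAPRE3 and MAP9.

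Of the plus-end and kinetochore-fibre genes, those called lower were DLGAP5, PSRC1, SPAG5 and GTSE1. DLGAP5 (also HURP, ENSG00000126787, chromosome 14 of GRCh37 from 55614830 to 55658326), which stabilises kinetochore fibres, measured 138, 139 and 148 FPKM in control and 96.3, 107 and 99.9 FPKM in Ras-induced libraries. It had a log2 fold change of -0.49 ± 0.07 (SE, adjusted p = 0.0099, limma) and stayed called whichever library was left out. PSRC1, a plus-end factor of chromosome congression, measured 112, 121 and 108 FPKM in control and 68.4, 85.7 and 70.5 FPKM after induction. SPAG5, or astrin, which guards kinetochore attachments, measured 127, 128 and 138 FPKM in control and 95.1, 104 and 98.8 FPKM after induction. GTSE1, an EB1-dependent regulator of microtubule stability, measured 78.4, 76.1 and 76.0 FPKM in control and 62.3, 62.5 and 59.95 FPKM after induction. None of these overlapped between groups, and their log2 fold changes were -0.60, -0.40 and -0.32 (adjusted p = 0.0147, 0.0167 and 0.023, limma). The calls of PSRC1 and GTSE1 ended without control 1 or 2 or Ras-induced 1 or 3 (adjusted p = 0.0563 to 0.065 and 0.0518 to 0.0733), and that of SPAG5 without control 2 or Ras-induced 1 or 3 (adjusted p = 0.0527 to 0.0641). SPAG5 shares 485 exonic bases (9.29%) with a gene on the same strand that averaged 24.5 FPKM in control and 25.7 FPKM in Ras-induced libraries. KNSTRN, the small kinastrin partner of astrin, measured 146, 152 and 136 FPKM in control and 122, 133 and 121 FPKM after induction, without overlap but not called (log2 fold change -0.20, adjusted p = 0.128, limma). It was called with quantile and upper-quartile scaling (adjusted p = 0.0324 and 0.0318).

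The end-binding (EB) genes showed no fall beyond the test. MAPRE1, which encodes the main mitotic tip tracker EB1, ranged over 121 to 140.4 FPKM with overlapping groups and a log2 fold change of -0.07 (95% interval -0.26 to 0.12). MAPRE3, which encodes EB3, rose from 3.15, 3.46 and 4.06 FPKM in the control libraries to 5.49, 7.12 and 5.68 FPKM in the Ras-induced ones. It had a log2 fold change of 0.64 ± 0.14 (SE, adjusted p = 0.0289, limma), which both scalings ended (adjusted p = 0.0656 and 0.0547), and which leaving out any library but the third control ended as well (adjusted p = 0.0673 to 0.103), as did no minimum level (adjusted p = 0.0722). MAPRE2 measured 8.90, 9.45 and 8.86 FPKM in control and 13.7, 10.8 and 10.2 FPKM after induction, higher without overlap but not called (log2 fold change 0.31, adjusted p = 0.137, limma). In control libraries MAPRE1 had 135 ± 7.72 FPKM (SD, n = 3), against 3.56 ± 0.466 FPKM (SD, n = 3) for MAPRE3. MAPRE3 stayed far under MAPRE1 in both groups. The lattice-rescue genes CLASP1 and CLASP2 overlapped between groups, with log2 fold changes of 0.02 (95% interval -0.26 to 0.31) and -0.07 (95% interval -0.41 to 0.27).

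Among bundling and lattice genes, PRC1 (ENSG00000198901, chromosome 15 of GRCh37 from 91509270 to 91538859), which crosslinks antiparallel microtubules of the spindle midzone, measured 294, 297 and 321 FPKM in control and 191, 189 and 194 FPKM in Ras-induced libraries. Its mean fell by 37.1%, with a log2 fold change of -0.66 ± 0.07 (SE, adjusted p = 0.00336, limma). CKAP2, a potent promoter of microtubule growth, measured 174, 169.8 and 173 FPKM in control and 112, 118 and 114 FPKM after induction, and had a log2 fold change of -0.58 ± 0.06 (SE, adjusted p = 0.00384, limma). Both were called in every alternative at that threshold, whichever library was left out. PRC1 shares 57.6% of its exonic bases with a longer annotated gene on the same strand, for which no level was read, and 1892 exonic bases with PRC1-AS1 on the other strand, listed at 73.2 FPKM in control and 47.5 FPKM in Ras-induced libraries on average. The library kit does not mark strand, so reads of that stretch cannot be assigned to either gene. CKAP2L, the paralog of CKAP2, overlapped between groups and had a log2 fold change of -0.12 (95% interval -0.30 to 0.06, adjusted p = 0.331, limma).

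NUSAP1, which bundles microtubules near chromatin, measured 35.2, 36.7 and 40.9 FPKM in control and 26.7, 18.6 and 30.2 FPKM after induction. The groups did not overlap, but the Ras-induced libraries were spread widely and the gene was not called, with a log2 fold change of -0.59 ± 0.17 (SE, adjusted p = 0.0654, limma). With quantile scaling the adjusted p was 0.0444. In the annotation 81.4% of its exonic bases are shared with another gene on the same strand, and 352 bases with OIP5 on the other, at 23.6 and 18.4 FPKM on average. MAP4, the major ubiquitous lattice protein, measured 162, 152 and 170.4 FPKM in control and 140.4, 121 and 132 FPKM after induction, without overlap. It was not called (log2 fold change -0.30, adjusted p = 0.0584, limma, and 0.0321 with upper-quartile scaling). MAP1B overlapped between groups, and its log2 fold change was -0.25 (95% interval -0.65 to 0.15).

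By contrast, MAP9 and MAP1A were higher. MAP9, or ASAP, a spindle-associated MAP (ENSG00000164114, chromosome 4 of GRCh37 from 156263810 to 156298122), rose from 2.41, 2.05 and 2.15 FPKM in control to 4.56, 4.93 and 5.53 FPKM in Ras-induced libraries. This was the largest change of the 40 genes, with a log2 fold change of 0.91 ± 0.13 (SE, adjusted p = 0.00768, limma), and it was called whichever library was left out and with both scalings. MAP1A, a structural MAP best known from neurons, measured 16.0, 18.9 and 16.2 FPKM in control and 29.4, 23.1 and 24.9 FPKM after induction. It had a log2 fold change of 0.57 ± 0.12 (SE, adjusted p = 0.0238, limma), and was also called with both scalings (adjusted p = 0.0369 and 0.0458), but not with no minimum level (adjusted p = 0.0543) and not without control 1, 2 or 3 or Ras-induced 1 or 3 (adjusted p = 0.0545 to 0.0863). MAP7, which recruits kinesin-1, was measured at 0.0720 to 0.296 FPKM and was not tested.

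STMN1, or stathmin, which sequesters tubulin and destabilises microtubules until mitotic kinases inactivate it, was the most abundant of the 41 genes in both groups. It measured 591, 593 and 558 FPKM in control and 343, 422 and 379 FPKM in Ras-induced libraries. The groups did not overlap, and the mean fell by 34.3%, with a log2 fold change of -0.61 ± 0.09 (SE, adjusted p = 0.0099, limma). Leaving out control 1 or 2 or Ras-induced 3 ended the call (adjusted p = 0.0516 to 0.0556). KATNA1, the catalytic subunit of the severing enzyme katanin, ranged over 22.2 to 25.5 FPKM in overlapping groups. Its log2 fold change was -0.0028 with a 95% interval from -0.21 to 0.21.

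The summed FPKM of the augmin subunits was 162.9, 168.5 and 157.1 in control libraries and 152.8, 163.9 and 153.4 in Ras-induced libraries, and the sums overlapped. The median log2 fold change of the 8 genes was -0.04, against 0.10 over all tested genes. HAUS3 (ENSG00000214367, chromosome 4 of GRCh37 from 2229191 to 2243860) was the exception in the higher direction, with 7.87, 7.16 and 7.36 FPKM in control and 10.6, 10.7 and 9.98 FPKM after induction. It had a log2 fold change of 0.43 ± 0.09 (SE, adjusted p = 0.022, limma), was called with quantile and upper-quartile scaling (adjusted p = 0.0472 and 0.0486), and lost its call whichever of the 6 libraries was left out (adjusted p = 0.0563 to 0.0954). It shares 686 exonic bases with POLN on the same strand, which averaged 0.883 and 0.747 FPKM, and 39.9% of its exonic bases with a further annotated gene on that strand.

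HAUS7 (which shares 1414 exonic bases with TREX2 on the same strand) measured 24.2, 26.7 and 25.3 FPKM in control and 21.1, 22.8 and 21.0 FPKM after induction, and HAUS8 30.1, 26.8 and 26.4 FPKM and 21.1, 25.8 and 21.2 FPKM. Neither overlapped between groups, and neither was called, with log2 fold changes of -0.22 and -0.28 (adjusted p = 0.106 and 0.121, limma). Upper-quartile scaling gave adjusted p = 0.0404 and 0.0482. The other subunits overlapped between groups. HAUS1 had a log2 fold change of 0.03 (95% interval -0.28 to 0.35), HAUS2 of -0.02 (95% interval -0.35 to 0.30) and HAUS4 of -0.05 (95% interval -0.26 to 0.16). HAUS5 had -0.22 (95% interval -0.51 to 0.07) and HAUS6 0.08 (95% interval -0.15 to 0.32). With either scaling the estimates of HAUS1 and HAUS6 turned below 0. Levels ran from 7.46 ± 0.365 FPKM (SD, n = 3) for HAUS3 to 35.3 ± 4.13 FPKM (SD, n = 3) for HAUS1 in control libraries. HAUS3 and HAUS5 were the lowest in both groups, with HAUS3 under HAUS5 in control and above it in Ras-induced libraries.

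**Figure D4:**
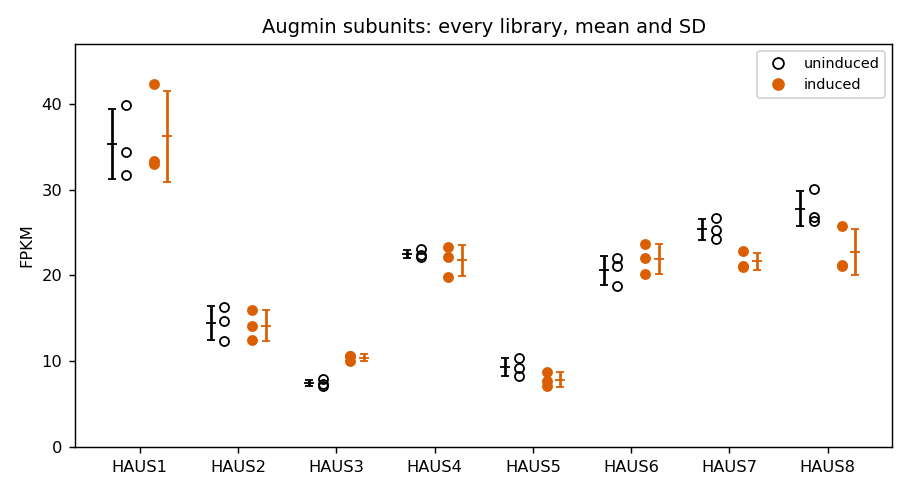
FPKM of the 8 augmin subunits in every library, with the group mean and SD beside the points. HAUS3 is higher and HAUS7 and HAUS8 are lower in all 3 Ras-induced libraries, and the remaining subunits overlap between groups.

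Over the 40 tested genes, 22 were lower and 6 higher in all 3 Ras-induced libraries than in all 3 control libraries. Among all tested genes 12.8% were lower and 27.1% higher in this way. The spread between replicates was modest, with a median coefficient of variation of 6.94% in control and 7.79% in Ras-induced libraries. In order of level, STMN1 was followed by PRC1 and RACGAP1 in control libraries, at 581 ± 19.6, 304 ± 15.03 and 210.4 ± 3.23 FPKM (SD, n = 3), each separated from the next by more than its spread. TACC3, ANLN and CKAP2 came next at 178, 173 and 172 FPKM on average, and their values overlapped. The count of called genes was not steady when a library was removed. It was 8, 7 and 17 without control 1, 2 and 3, and 8, 13 and 8 without Ras-induced 1, 2 and 3, and 7 of the 20 (PRC1, CKAP2, CEP55, RACGAP1, DLGAP5, CKAP5 and MAP9) were called every time. Of all tested genes 6.15% to 13.4% were called in the same fits, against 16.7% with every library.

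Related spindle genes outside the 41 were listed by role. Shares of all tested genes to read these lists against are 5.67% lower and 11.0% higher. Of 15 mitotic kinesins and TPX2, 7 were called lower and none higher, led by KIF20A, a midzone kinesin, with 182 ± 11.6 FPKM in control libraries against 104 ± 4.26 FPKM after induction (SD, n = 3 each), then CENPE and KIF18B. Of 17 other cytokinesis factors 6 were lower and 1 higher (TSG101). The calls of that list fell from 7 to 2 without control 1 or Ras-induced 1 and to 1 without control 2 or Ras-induced 2 or 3, and those of the kinesins from 7 to 5 or 6 without any library but the third control. With no minimum level or no trend 3 of the other cytokinesis factors were called. The largest falls in that list were those of MYH9, MYH10 and ROCK2, with log2 fold changes of -0.88, -0.83 and -0.61 (adjusted p = 0.00454, 0.0474 and 0.0191, limma), which encode non-muscle myosin heavy chains and a kinase that promotes myosin contraction.

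The γ-tubulin nucleation and cortical positioning lists had 14.3% and 13.3% of their genes called, against 16.7% of all tested genes. Of 14 γ-tubulin nucleation genes, which act together with augmin, 1 was lower (CEP192, log2 fold change -0.47) and 1 higher (TUBGCP2, 0.36). Cortical positioning genes had 1 of 15 lower (NDE1, -0.44) and 1 higher (DYNC1LI1, 0.32), and with either scaling neither TUBGCP2 nor DYNC1LI1 was called. No γ-tubulin gene was called without any 1 library but the third control, and no cortical gene without control 1 or any Ras-induced library. Among the 13 tested of 22 other MAPs, EMLs and severing factors none was lower and 2 were higher, among them STMN3 (0.62), and with either scaling none of the 13 was called. These 2 calls fell to 1 without Ras-induced 3 and to 0 without any 1 of the other libraries. The 74 tested genes of these lists gave 20 calls in all, 27.0%, against 16.7% of all tested genes, made up of 15 lower and 5 higher. With quantile scaling 18 were lower and 1 higher, and with upper-quartile scaling 20 were lower and 1 higher. Leaving out 1 library gave 17 calls without the third control and 7 without any 1 of the others (control 1 or 2, or Ras-induced 1, 2 or 3).

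**Figure D5:**
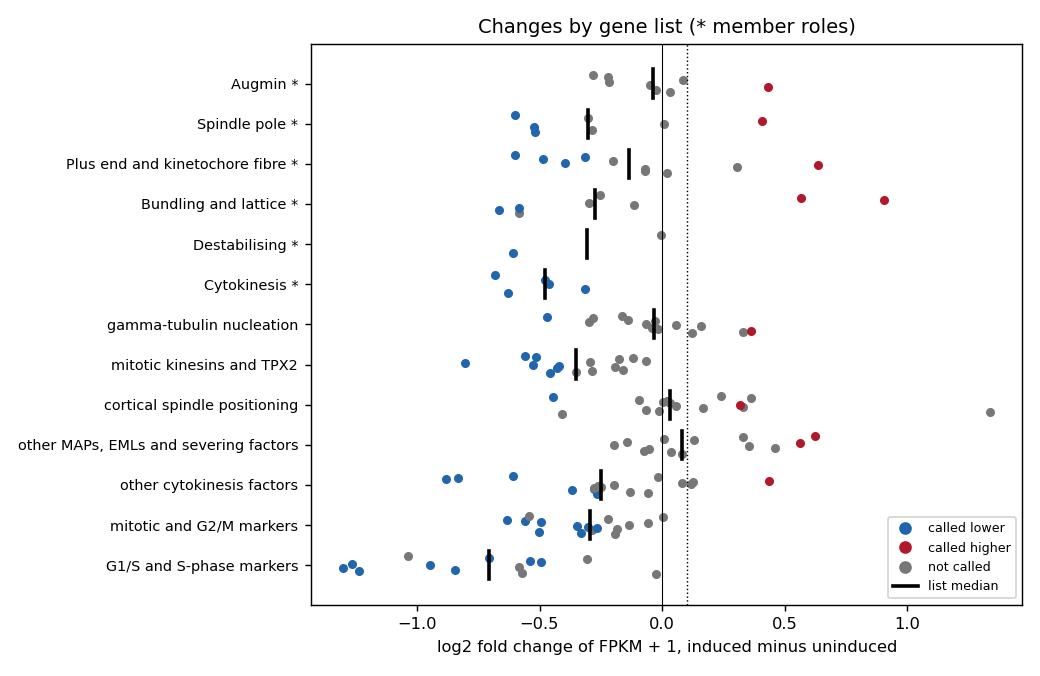
Log2 fold change of FPKM + 1 (Ras-induced minus control) by gene list, with a point per tested gene, a bar for the list median and a dotted line at the median of all tested genes, 0.10. All 5 cytokinesis genes, all 15 kinesins and TPX2 and all 16 G2/M markers lie left of the line, as do 7 of 8 augmin and 10 of 14 γ-tubulin genes, whose medians are -0.04 and -0.03, and the point near 1.34 is INSC (adjusted p = 0.127, limma).

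Calls among markers of cell cycle phase were in the lower direction, to be read against 5.67% of all tested genes called lower. Of 16 mitotic and G2/M markers, none of which is among the 41 genes, 8 were called lower and none higher, with a median log2 fold change of -0.29. The 8 calls fell to 1, 0 and 7 without control 1, 2 and 3, and to 2, 4 and 0 without Ras-induced 1, 2 and 3. With no trend 4 were called, and with no minimum level 3. Their summed level was 2660, 2631 and 2737 FPKM in control libraries and 2103, 2323 and 2263 FPKM in Ras-induced libraries, and no marker was at 0. PLK1, AURKB and CENPE stand in this list and in those of related spindle genes. Of 14 G1/S and S-phase markers 13 were tested and 8 were called lower, with a median of -0.71 and summed levels of 421.5 to 530.9 FPKM in Ras-induced against 645.8 to 704.8 FPKM in control libraries. The calls of that list fell to 4 without control 2 or Ras-induced 1 or 3, and to 6 without control 1.

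Of 10 fibroblast markers 5 were called lower, with a median log2 fold change of -1.22. DCN, a collagen-binding proteoglycan, had 251 ± 77.1 FPKM in control libraries against 24.7 ± 3.70 FPKM after induction (SD, n = 3 each). LUM, COL1A2, THY1 and COL5A1 had log2 fold changes of -2.01, -1.30, -1.19 and -1.05 (adjusted p = 0.00582, 0.0101, 0.00279 and 0.0429, limma). VIM and PDGFRB overlapped between groups, and FAP averaged 39.0 FPKM in control and 66.3 FPKM in Ras-induced libraries without overlap (adjusted p = 0.0869, limma). The list had 3 calls without control 2 or Ras-induced 1 and 7 without Ras-induced 2. Its summed level, of which VIM is the largest part, was 3147 to 4429 FPKM after induction against 5002 to 5706 FPKM in control, and none was at 0. Of the endothelial markers TEK alone was above 1 FPKM, at 15.3 and 4.93 FPKM, and was called lower. The part of these shifts in the values of the spindle-associated genes was not tested.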

How the data were processed

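Poly(A) RNA from 6 libraries, 3 of control and 3 of Ras-induced mitotic cells, had been sequenced, and the deposited values are FPKM per gene. The authors trimmed reads with Trim Galore 0.3.0, aligned them with TopHat2 to hg19 (Ensembl build 73) and estimated FPKM with Cufflinks and Cuffdiff. The authors' methods and tool names come from the paper and the submitters' processing notes, and no read count was used. FPKM divides by length and library total, so a change in a few abundant genes shifts all others, and the read totals of the libraries were not analysed here. Lines with more than 6 values (120) and 18 columns with no sample name were not used. A deposited table of the authors' own Cuffdiff comparison, with fold changes and p-values, was not used either. The library numbers are those of the column names, and the same-numbered libraries correlated at -0.00266, 0.0433 and 0.0481 after removal of group means, so that the numbers were not taken to pair them.

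The 13993 genes averaging 1 FPKM or more entered limma 3.58.1 (R 4.3.3) as log2(FPKM + 1), with one term for induction (empirical Bayes with mean-variance trend, two-sided), adjusted by the Benjamini-Hochberg method over all of them and called at 0.05 or less. Fold changes on this scale understate those of low genes. An exact permutation test of 3 against 3 cannot go below p = 0.1 and was not used. The members and all gene and marker lists were chosen with earlier results of these data known. All 41 members are named, with statistics for the called ones, and named genes of other lists are the called ones of largest change or those of the marker lists. INSC is named as well, chosen after its values were seen. The study describes the experiments as repeated independently, and p-values measure the spread between these libraries. Tables and figures were made with Python 3.11.15, pandas 2.3.3, numpy 2.4.6 and matplotlib 3.10.9. Gene positions and exon overlaps are from GENCODE 44 lifted to GRCh37, and promoter sequences from RefSeq on GRCh38.p14. The procedure was tested on simulated data. Some genes of the further lists are not reported here by name. Alternatives were quantile and upper-quartile scaling, a pseudocount of 0.1, a minimum mean of 5 FPKM, no minimum, no trend, the library number as a block, leaving out each library, and a threshold of 0.01. The count of promoters over any listed start and the background of genes of at least 50 FPKM were added after seeing the data.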

Additional observations from a re-analysis of the deposited data

How the results depend on the processing

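Against 20 called members (5 higher, 15 lower), a threshold of 0.01 gave 7 (1 higher, 6 lower). The number called higher was 3 with quantile scaling, upper-quartile scaling, a minimum mean of 5 FPKM or no minimum. At the minimum of 5 FPKM 38 members were tested, and MAP9 and MAPRE3 were not among them. Leaving out 1 library gave 7 to 17 called members, 1 to 3 higher and 6 to 14 lower. Of all genes (2336 called, 1543 higher, 793 lower), 1518 were called with no minimum (960 higher), 921 higher with upper-quartile scaling, 601 at 0.01 (345 higher, 256 lower), and 860 to 1872 without 1 library (519 to 1162 higher, 335 to 710 lower). Of the related spindle genes (20 called, 5 higher, 15 lower), 12 were called with no minimum (3 higher, 9 lower), 11 with no trend (1 higher), 1 higher with either scaling, 3 at 0.01 (0 higher, 3 lower), and 7 to 17 without 1 library (0 to 2 higher, 6 to 15 lower). Apart from genes that a minimum level left out of the test, the cause of these shifts was not tested.

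Uncalled genes that changed sign were TACC1 (-0.0671 with quantile and -0.1007 with upper-quartile scaling, -0.0461 to 0.0832 without 1 library), CLASP1 (-0.0769 and -0.0827, -0.0851 to 0.0794), HAUS1 (-0.0888 and -0.0768, -0.0839 to 0.1182) and HAUS6 (-0.0111 and -0.0206). Without 1 library CLASP2 ranged from -0.1866 to 0.0300, HAUS2 from -0.1239 to 0.0617, HAUS4 from -0.0988 to 0.0143 and KATNA1 from -0.0380 to 0.0592. With no minimum ASPM, HMMR, ECT2, CIT, MAP1A and MAPRE3 lost their calls (adjusted p = 0.0543 to 0.0973, limma), and with no trend ASPM, HMMR and ECT2 did (adjusted p = 0.0568 to 0.0704, limma). With a pseudocount of 0.1 all 40 members kept their direction and side of the threshold.

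No label pairs the libraries by number, and not every library correlated best with its own number. With the number as a replicate block, 20 members were called (4 higher, 16 lower), 2310 genes in all (1466 higher, 844 lower) and 18 related spindle genes (4 higher, 14 lower). ECT2 and TACC2 then had adjusted p = 0.0608 and 0.0519, and NUSAP1 and TACC3 had 0.0494 and 0.0487 (limma). Read totals were not analysed here, so no detection limit can be given for values near 0.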
